A study of Homo sapiens with 2 samples.

Results

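The genes described here encode the proteasome, its activators and the factors that assemble it. They were taken as every row of the value table whose platform symbol began with PSMA, PSMB, PSMC, PSMD, PSME, PSMF or PSMG and a digit, which gave 53 rows (probe sets) of 47 genes, out of 18417 genes with a row of their own. None of the rows carried several symbols (0 of 53). PSMC3IP, a meiotic recombination factor, and PSME3IP1, which binds PSME3, met the rule by spelling only and were kept apart, so 45 genes of the particle and its helpers remained. PSMC5, PSMD7 and PSMD13 were not analysed here. Both samples were K562, an established human chronic myeloid leukaemia line, carrying an inducible short hairpin RNA against BMI1, a Polycomb protein. The doxycycline sample had been given the inducer for 96 h, and the control sample, which carried the same hairpin construct, had been given none. Each group was 1 culture on 1 array, so there was no replicate error for any difference and no gene could be tested. The labels do not say whether the line was 1 clone or a pool, and no sample received doxycycline without the hairpin, so the inducer and the hairpin cannot be told apart.

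The 26S proteasome is the main machine that degrades ubiquitin-tagged proteins in the nucleus and cytosol. Its 20S core is a barrel of alpha rings, which gate the entrance, and beta rings, which hold the proteolytic sites. A 19S particle caps the core, with a base of ATPases that unfold substrates and a lid that removes ubiquitin. Interferon replaces the catalytic beta subunits with PSMB8, PSMB9 and PSMB10 to form the immunoproteasome, which is known for making peptides for HLA class I. Genes of the constitutive particle are known to be switched on together by the transcription factor NRF1 (gene NFE2L1) when proteasome activity falls short.

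Values are log2 values made by RMA (robust multi-array average), and differences are the doxycycline sample minus the control sample on that scale. The median over all rows was 6.77 with doxycycline and 6.78 without. The probe set annotated to BMI1 and the COMMD3-BMI1 read-through had a value of 10.00 with doxycycline and 10.84 without, so the target was lower in the sample labelled as induced. The 7 markers of K562 cells analysed here all reached 6 in both samples. Their mean was 10.2 with doxycycline and 10.4 without. With doxycycline 7 of 7 were lower, against 48.8% of the genes compared below. HBZ differed by -0.44 (a second row by -0.65), HBE1 by -0.31 and KLF1 by -0.28. Each of these lay further below 0 than any proteasome gene, the lowest of which, PSMG3, differed by -0.22. Markers of T cells, B cells, monocytes and fibroblasts had a mean of 6.95 with doxycycline and 6.94 without over 7 genes. Of these, 5 reached 6. LYZ, COL1A1, COL1A2 and CD3D had higher values in both samples than EPOR, the lowest K562 marker (7.30 with doxycycline and 7.39 without). COL3A1, CD3E and MS4A1 had lower values than EPOR. With doxycycline 4 of these 7 markers were lower, and LYZ, a monocyte marker, differed by 0.28. The part of these shifts in the results below was not tested.

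Most genes of the constitutive proteasome were slightly lower in the doxycycline sample. A gene was compared if its higher value reached a floor of 6, which 43 of the 45 did. The other two, PSMA8 of the testis-specific core (3.38 with doxycycline and 3.43 without) and PSMB11 of the thymic core (5.72 and 5.61), were under the floor in both samples. Of the 43 genes, 32 were lower (74.4%) and 11 higher, with a median difference of -0.06, a 1.04-fold difference. Over all 13471 genes compared, 48.8% were lower and 50.3% higher, and the median was 0.0018. Among the 2554 genes with a mean level between 9.34 and 11.1, the middle of the proteasome genes' own range, 49.6% were lower. Among the 674 genes with a mean level from 10.91 upwards, such as PSMA4, PSMB2 and PSMC2, the median was -0.014. For the 28 subunits of the 20S core rings, base and lid together, the count was 25 lower and 3 higher, with a median of -0.06. With the trend of the difference on level subtracted it was 24 lower and 4 higher. After quantile normalization of the 2 samples it was 21 lower and 7 higher, because PSMA4, PSMC1, PSMC2 and PSMC3, all close to 0, changed sign.

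The sizes of these differences were small. At 1.2-fold or more, 1 of the 43 genes was higher, against 6.04% of all genes, and 0 were lower, against 4.05%. At 1.5-fold or more, 0 were higher, against 0.364% of all genes, and 0 were lower, against 0.111%. The all-gene shares overstate the background, because differences spread less at high levels. The proteasome genes had a median level of 10.2, against 8.07 over all genes. Of the 2554 genes in the middle of the proteasome genes' own range, 74 reached 1.2-fold upwards and 45 downwards. At 1.5-fold the counts of these 2554 genes were 4 upwards and 1 downwards. The robust SD of differences among genes of like level (from the median absolute deviation) lay between 0.10 and 0.19 for these genes. Within 1 such SD of the median of genes of like level stood 30 of the 43 (69.8%), and the share over all genes was 68.1%. In size the single differences thus resembled those of other genes, while the count of lower genes was above the background. All genes were measured on the same 2 arrays, so that count does not stand in for replicates. Over 485 genes with several rows of differing values, the differences of rows of the same gene had a pooled SD of 0.15. Most single proteasome genes, and the lid median of -0.14, had differences no larger than this. Proteasome genes are also short, with a median genomic span of 13.6 kb in RefSeq against 24.0 kb over all genes compared. With the trend of the difference on span subtracted, 23 of the 28 constitutive subunits were lower, against 50.2% of all genes.

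**Figure D1:**
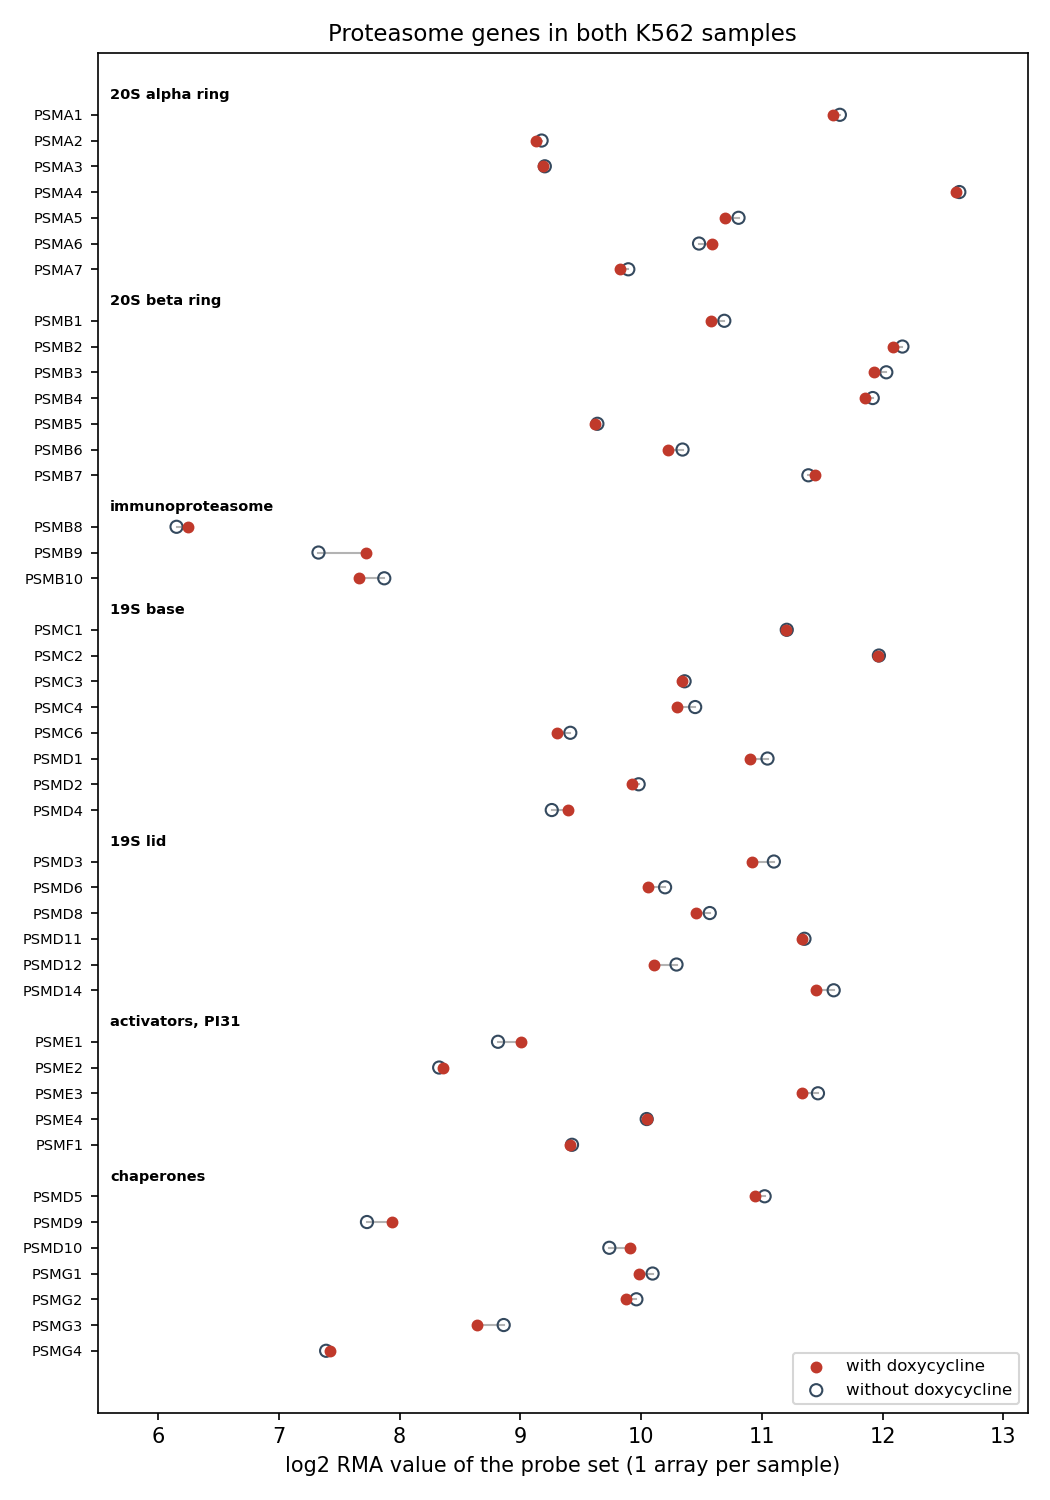
Log2 RMA value (horizontal axis) of the 43 proteasome genes past the floor, grouped by role, with filled points for the doxycycline sample and open points for the control sample, 1 array each. Filled and open points nearly coincide for most genes, and PSMB9 has the widest gap, at 7.72 with doxycycline and 7.33 without.

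In the alpha ring of the 20S core, 6 of 7 genes were lower and the median was -0.05. PSMA5 differed by -0.11, PSMA7 by -0.07, PSMA1 by -0.06, PSMA2 by -0.05, PSMA4 by -0.02 and PSMA3 by -0.02. The exception was PSMA6, which was higher by 0.11, at 10.59 with doxycycline and 10.48 without. In the constitutive beta ring 6 of 7 genes were lower too, with a median of -0.08. The structural subunits PSMB1, PSMB2, PSMB3 and PSMB4 differed by -0.11, -0.08, -0.10 and -0.06. The 3 catalytic subunits did not share a direction. PSMB6, the caspase-like site, had a value of 10.22 with doxycycline and 10.34 without, a difference of -0.12. PSMB5, the chymotrypsin-like site that bortezomib blocks, had 9.62 with doxycycline and 9.64 without, a difference of -0.02. PSMB7, the trypsin-like site, had 11.44 with doxycycline and 11.39 without, and so differed by 0.05.

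The lid of the 19S particle was the group with the lowest median. All 6 of its genes analysed here were lower, and the median was -0.14. PSMD12, a scaffold subunit, had a value of 10.10 with doxycycline and 10.29 without, or 1.14-fold lower. PSMD3, another scaffold subunit, had 10.92 with doxycycline and 11.10 without, or 1.13-fold lower. PSMD14, the deubiquitinase that clips ubiquitin chains from substrates, differed by -0.14, PSMD6 by -0.14 and PSMD8 by -0.11. PSMD11 was nearest to 0 at -0.02. All 6 stayed lower after median centring, after quantile normalization and with a trend on level or on genomic span subtracted. Apart from PSMD11, the lid differences were larger than any shift these settings made, so this check says little about them.

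In the base, 7 of 8 genes were lower and the median was -0.04, and after quantile normalization 4 of 8 were lower. The ATPase PSMC4 differed by -0.15, and PSMC3, PSMC1 and PSMC2 by -0.02, -0.0094 and -0.0041. The large scaffold subunit PSMD1 differed by -0.14 and its partner PSMD2 by -0.06. PSMD4, a receptor for ubiquitin chains that sits between base and lid, was higher by 0.13, at 9.39 with doxycycline and 9.26 without. The direction of the ATPase PSMC6 was not settled. Its row with the higher mean (8150870) had 9.30 with doxycycline and 9.41 without, a difference of -0.11. Its other row (7974380) had 9.12 with doxycycline and 9.02 without, or 0.10 higher. The row numbers follow chromosome order, since 98.2% of 19429 rows with 1 symbol had the same chromosome as most of the named rows around them. PSMC6 lies on chromosome 14, and row 8150870 stood among rows of chromosome 8, and what it measures was not tested. PSMC1 has the same pattern, with row 8080923 (-0.0094) among rows of chromosome 3 and row 7976189 at a difference of 0. With the rows placed on the genes' own chromosome, 5 of 8 base genes were lower and 2 higher, with a median of -0.01, and 23 of the 28 constitutive subunits were lower and 4 higher.

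**Figure D2:**
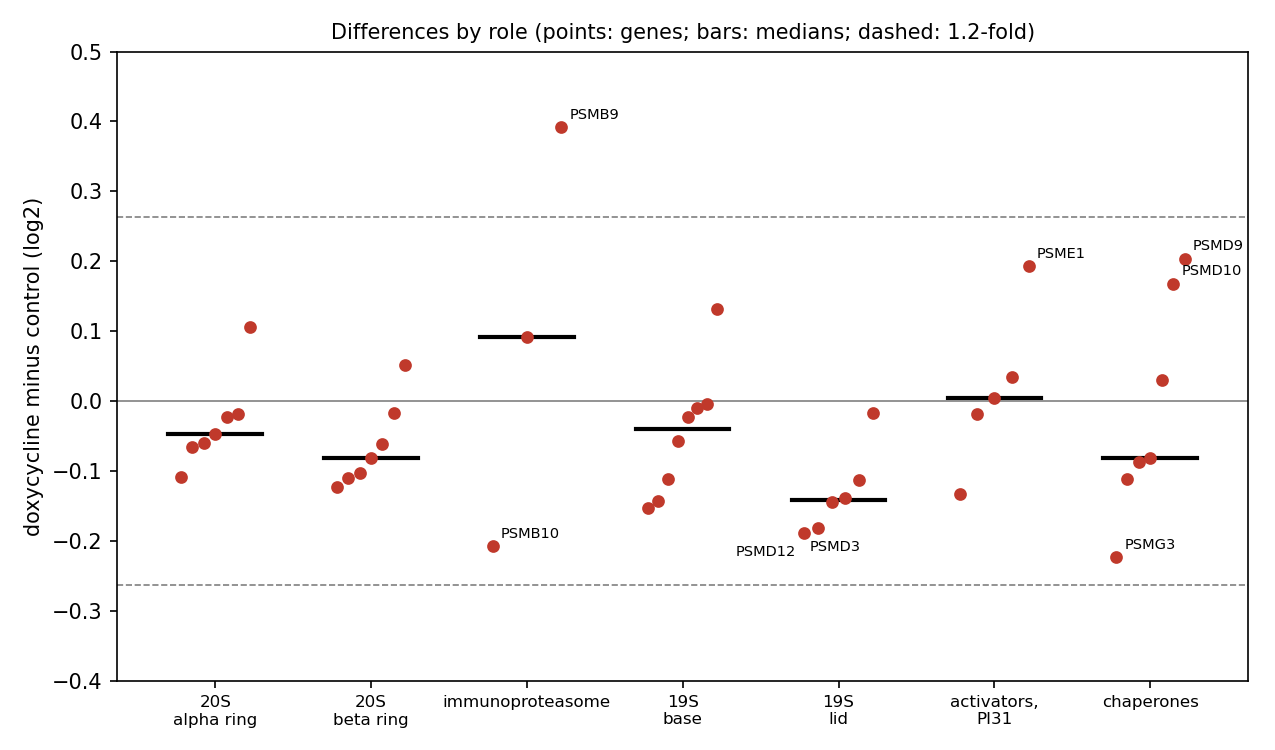
Doxycycline minus control difference (log2, vertical axis) of each proteasome gene past the floor by role, with black bars at the group medians and dashed lines at 1.2-fold. The 6 lid genes all lie below 0 around a median of -0.14, and PSMB9 is the only point beyond a dashed line.

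The immunoproteasome subunits went both ways, and they held the largest difference of the whole set. PSMB9, which takes the place of PSMB6, had a value of 7.72 with doxycycline and 7.33 without, or 1.31-fold higher. Of all genes compared, 1.92% had a difference as high or higher, and PSMB9 was more than 2 robust SDs from the median of genes of like level. The other 42 of the 43 were within 2 robust SDs, as were 93.9% of all genes, so a count of 1 beyond does not exceed the background. PSMB10, which takes the place of PSMB7, had 7.66 with doxycycline and 7.87 without, or 1.15-fold lower. PSMB8, which takes the place of PSMB5, was close to the floor at 6.24 with doxycycline and 6.15 without. PSMB8 and PSMB9 each had 3 rows with identical values, which were counted once.

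Set against the subunits they replace, the 3 inducible subunits shifted unequally within the arrays. The ratio of PSMB9 to PSMB6 was 1.43-fold higher with doxycycline (0.51 on the log2 scale), and that of PSMB8 to PSMB5 was 1.08-fold higher (0.11). The ratio of PSMB10 to PSMB7 was lower (-0.26). Of the 4 interferon regulators analysed here, IRF8 was under the floor. IRF1, an activator of the PSMB9 gene, had a value of 6.85 with doxycycline and 6.70 without. IRF9, the DNA-binding part of the interferon-stimulated factor, differed by -0.05, and NLRC5, the activator of HLA class I genes, by -0.09. These 3 did not share a direction either.

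The upstream sequences of the genes furthest from 0 in the immunoproteasome and the lid are shown because the members of the first group differed in opposite directions and those of the second in the same direction. Each is the 250 bases before the RefSeq gene start on GRCh38.p14, 5′ to 3′ on the gene's strand, with matches to the searched motifs in capitals. PSMB9 lies at chr6:32853942-32854191 (+ strand), PSMB10 at chr16:67936851-67937100 (- strand), PSMD12 at chr17:67366578-67366827 (- strand) and PSMD3 at chr17:39980557-39980806 (+ strand).
PSMB9: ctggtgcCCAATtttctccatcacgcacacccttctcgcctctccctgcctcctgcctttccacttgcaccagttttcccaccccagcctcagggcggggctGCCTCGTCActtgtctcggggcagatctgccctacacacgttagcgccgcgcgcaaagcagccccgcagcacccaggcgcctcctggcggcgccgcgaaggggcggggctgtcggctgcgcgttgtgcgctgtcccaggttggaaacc
PSMB10: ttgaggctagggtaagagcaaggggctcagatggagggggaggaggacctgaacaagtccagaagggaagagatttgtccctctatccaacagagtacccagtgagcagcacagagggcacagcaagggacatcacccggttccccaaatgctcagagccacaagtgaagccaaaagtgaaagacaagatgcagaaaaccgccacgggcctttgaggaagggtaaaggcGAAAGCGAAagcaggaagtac
PSMD12: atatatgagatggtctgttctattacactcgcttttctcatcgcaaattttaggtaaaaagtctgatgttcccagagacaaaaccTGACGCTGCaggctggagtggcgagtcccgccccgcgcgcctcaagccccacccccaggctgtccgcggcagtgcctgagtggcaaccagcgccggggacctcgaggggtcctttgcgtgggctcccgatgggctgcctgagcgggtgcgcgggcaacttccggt
PSMD3: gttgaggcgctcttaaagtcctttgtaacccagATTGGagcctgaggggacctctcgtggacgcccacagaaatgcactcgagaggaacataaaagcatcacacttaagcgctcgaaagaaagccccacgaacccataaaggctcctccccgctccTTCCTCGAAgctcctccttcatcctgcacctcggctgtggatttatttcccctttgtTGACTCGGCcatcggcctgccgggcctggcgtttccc
The 6 motifs searched on both strands were the antioxidant response element core TGACNNNGC, which NRF1 and NRF2 bind, the CCAAT box, the paired interferon half-sites GAAANNGAA, the gamma-activated site TTCNNNGAA, the E2F site TTTCCCGC and the CRE site TGACGTCA. No matches of different motifs overlapped in the proteasome promoters (0 overlaps). PSMB9 held a CCAAT box and an antioxidant core on the reverse strand, beginning 243 and 148 bases before the start. PSMB10 held the interferon half-sites, beginning 21 bases before the start. PSMD12 held an antioxidant core at 165 bases, and PSMD3 a CCAAT box on the reverse strand at 217, a gamma-activated site at 94 and an antioxidant core at 37 bases.

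Upstream sequences were found for 39 of the 45 genes. The antioxidant core occurred in 11 of the 39 (28.2%), against 11.03% of 27305 RefSeq promoters of this length. For all 6 motifs this background was not limited to the genes compared or matched to them. Of those 11 genes, 6 were lower with doxycycline and the median difference was -0.08, against 22 of 26 and a median of -0.05 for those without it. The CCAAT box occurred in 16 of 39 (41.0%), against 33.0% of all promoters, and 13 of the 15 such genes past the floor were lower, with a median of -0.10. Without a CCAAT box, 15 of 22 were lower, with a median of -0.04. The interferon half-sites occurred in 5 (12.8%, against 7.06%), namely PSMA4, PSMB4, PSMB10, PSME2 and PSMG4. Of these, 3 were lower, with a median of -0.02, against 25 of 32 and a median of -0.06 without them. The gamma-activated site occurred in 5 (12.8%, against 6.78%), and 4 of the 4 such genes past the floor were lower, with a median of -0.14, against 24 of 33 and a median of -0.02 without it. The E2F site occurred in 2 (5.13%, against 1.42%), both lower with a median of -0.08, against 26 of 35 and a median of -0.05 without it. The CRE site occurred in 0 (against 1.77%). With 1 array per sample, and with few genes for some motifs, these splits are descriptions only. A match describes the letters only and shows no binding.

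Among the activators, PSME1 and PSME2, which form the interferon-inducible PA28 ring, were higher, and PSME3, the nuclear PA28 gamma, was lower. PSME1 had a value of 9.01 with doxycycline and 8.81 without, or 1.14-fold higher. PSME2 had 8.36 with doxycycline and 8.33 without, a difference of 0.03. PSME3 had 11.33 with doxycycline and 11.46 without, and so differed by -0.13. The ratio of PSME1 to PSME3 was 1.25-fold higher with doxycycline and that of PSME2 to PSME3 1.12-fold higher. PSME4, the activator PA200 known from chromatin and sperm development, had 10.05 in both samples, which differed by 0.0041. PSMF1, the regulator PI31, had 9.41 with doxycycline and 9.43 without. Over the 5 genes, 3 were higher, 2 were lower and the median was 0.0041.

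**Figure D3:**
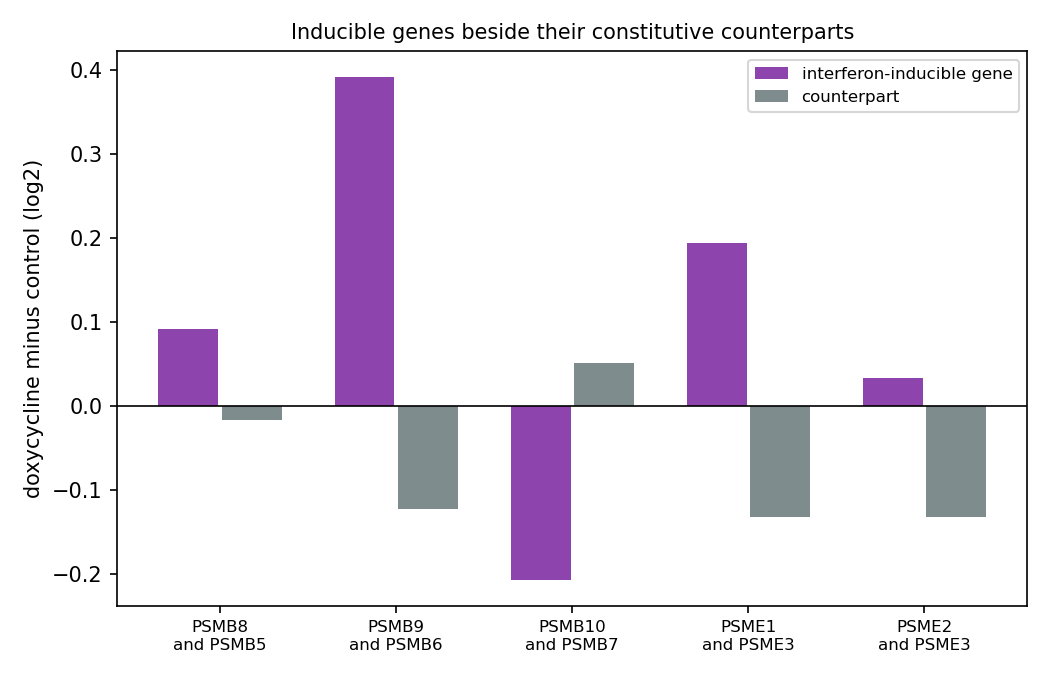
Doxycycline minus control difference (log2, vertical axis) of 5 interferon-inducible genes, each beside a comparison gene, 1 array per sample. PSMB8, PSMB9 and PSMB10 stand beside the subunit each replaces, and PSME1 and PSME2 beside PSME3, another activator. PSMB9 at 0.39 and PSMB6 at -0.12 are the pair furthest apart, and PSMB10 with PSMB7 runs the other way.

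The assembly chaperones did not share a direction. The PSMG proteins pair up to assemble the alpha ring, and 3 of their 4 genes were lower, with a median of -0.10. PSMG3 had a value of 8.64 with doxycycline and 8.86 without, or 1.17-fold lower, the lowest difference of the set, and 6.37% of all genes were as low or lower. PSMG4, its partner, had 7.42 with doxycycline and 7.39 without, so the partners did not shift alike. PSMG1 had 9.98 with doxycycline and 10.09 without, and PSMG2, its partner, had 9.87 with doxycycline and 9.96 without. Of the 3 chaperones of the base, 2 were higher and 1 lower. PSMD9 had 7.93 with doxycycline and 7.73 without, or 1.15-fold higher. PSMD10, also called gankyrin, had 9.90 with doxycycline and 9.74 without, or 1.12-fold higher. PSMD5 differed by -0.08. Over all 7 chaperones, 4 were lower and 3 higher, with a median of -0.08.

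**Figure D4:**
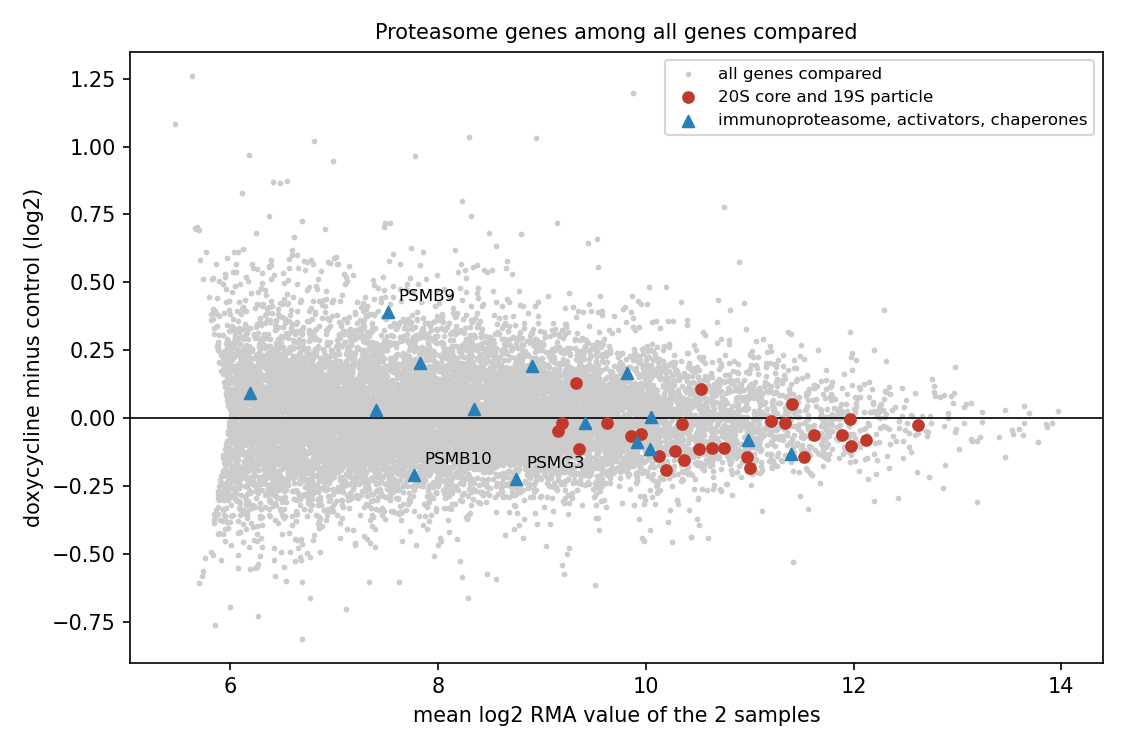
Difference (log2, vertical axis) against the mean log2 RMA value of the 2 samples (horizontal axis) for all 13471 genes compared (grey), the 28 core and 19S genes (circles) and the other 15 proteasome genes (triangles). The circles lie inside the grey cloud and mostly just below 0, and PSMB9, at 0.39, is the highest of the marked genes.

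Genes of proteins that work with the particle but fall outside the symbol rule were compared too. Of 9 such genes, 6 were lower (66.7%) and 3 higher, against 48.8% of all genes lower. Their median was -0.06, and 0 reached 1.2-fold in either direction. With so few genes, this count is a description only. ADRM1, a ubiquitin receptor of the base, had a value of 10.22 with doxycycline and 10.45 without, or 1.17-fold lower. SEM1, a small lid subunit, differed by -0.13, and the proteasome deubiquitinase USP14 by -0.13. POMP, the maturation protein of the beta ring, had 10.20 with doxycycline and 10.28 without, a difference of -0.09. AKIRIN2, which brings proteasomes into the nucleus, was higher by 0.12.

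The genes that control the proteasome and feed it with ubiquitinated proteins did not shift one way. Of the 16 analysed here, 8 were higher and 8 lower, with a median of 0.0012. NFE2L1, the gene of NRF1, had a value of 9.56 with doxycycline and 9.40 without, or 1.11-fold higher. NFE2L2, the gene of the related factor NRF2, had 9.85 with doxycycline and 9.83 without. RAD23B, a shuttle for ubiquitinated proteins, differed by -0.16, UFD1, a cofactor of the segregase VCP, by -0.13, and UBA6, a ubiquitin-activating enzyme, by 0.12. The genes set aside for their spelling differed by 0.14 for PSMC3IP and -0.06 for PSME3IP1.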

How the data were processed

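RNA of the 2 K562 cultures was labelled by an Affymetrix whole-transcript protocol, 0.3 µg of RNA with an integrity number of 10 each, per the labels. The submitters' processing notes name RMA and Affymetrix Expression Console 1.1.1 as what the authors used to make the deposited log2 values. The base of 2 follows from RMA and the range of the values. RMA normalizes arrays to each other, so a shift shared by all genes would not show. No genome build is named for the array's annotation in what was used here.

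Of 33297 rows, 19460 had 1 symbol in the platform annotation, 1754 several and 12083 none. Rows with several symbols were left out, and a gene took its row with the highest mean. Symbols were updated through RefSeq (GRCh38.p14). Every gene of the rule was named, with values of both samples for the genes that answer a comparison or lie furthest from 0. Of the associated, regulatory and interferon lists, up to 4 genes furthest from 0 and 4 fixed genes were named. The members and lists were chosen with earlier results of these data known. No p-value was computed with 1 sample per group. The number of arrays limits the precision. Calculations used Python 3.11.15, numpy 2.4.6, pandas 2.3.3 and statsmodels 0.14.6, and were tested on simulated data.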

Additional observations from a re-analysis of the deposited data

How the results depend on the processing

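Of 12 alternative settings, 10 were planned (mean or median over rows, rows with several symbols counted, median centring, loess on level, quantile normalization and 4 other floors) and 2, own-chromosome rows and the trend with genomic span, were chosen after seeing the data. The medians of the 7 role groups, of the constitutive subunits and of all 43 genes stayed within 0.05 of their values in all 12 where they could be computed. For the alpha ring (-0.047), the base (-0.040) and the activators (0.0041), 0.05 exceeds the size of the median itself, so this says little about them. The medians of all 43 genes (-0.060) and of the constitutive subunits (-0.063) were little larger than 0.05, so agreement within 0.05 says little about their size too. With the span trend subtracted, the median of all 43 was -0.040. Floors of 5, 7 and 8 kept the same 28 constitutive subunits, so their median could not move there. The base median was -0.013 with own-chromosome rows. Medians of smaller sets, of genes outside the symbol rule and of motif groups were not recomputed. The median of the activators was -0.03 with the span trend subtracted. With a floor of 8 the immunoproteasome had no gene left and gives no value. The count of lower constitutive subunits lay between 21 and 26 throughout, and that of higher ones was 5 after median centring, 7 after quantile normalization and 5 with the span trend subtracted, in place of 3. With a floor of 8, 7 genes were higher in place of 11, and 0 were at least 1.2-fold higher, since PSMB9 was then not compared. Of 510 recomputed differences of single genes, 507 stayed within 0.05. The other 3 were PSMC6, at -0.0075 with the mean or median of its rows and at 0.10 on its own-chromosome row. Most of the 507 could not have moved. A floor does not alter a gene's difference, and none of the rows carried several symbols. Only PSMC1 and PSMC6 had rows with differing values, and median centring shifted every gene alike. With 1 array per group, small differences of single subunits cannot be told from array error, and neither can a shift shared by many subunits. No paired analysis was possible because each group held 1 sample.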
